A study of Mus musculus with 4 samples.

Results

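Dendritic cells are a small leukocyte population of the aortic wall that samples antigen and carries it to lymph nodes. They were picked from 4 single-cell droplet libraries of the mouse aorta by their transcripts alone, with no sort and no clustering. A barcode counted as a dendritic cell when it held at least 5 unique molecular identifiers (UMIs, each a captured transcript) of H2-Ab1, at least 2 UMIs of Flt3, Clec9a, Xcr1, Cd209a and Ccr7 together, under 5 UMIs of the complement genes C1qa, C1qb and C1qc together, and 0 UMIs of Cd3e, Cd79a and Pecam1. Before that, barcodes needed at least 500 genes and under 10% mitochondrial UMIs. Of 25593 barcodes kept among 31081 deposited, 190 met the rule.

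CNC-SMC-Cre and the R26-tdT reporter were carried by all mice, controls included, at 16 to 20 weeks of age. Control mice were CNC-SMC-Cre;R26-tdT, and conditional knockout (cKO) mice were CNC-SMC-Cre;Smad4flox/flox;R26-tdT. Cells came from the aortic arch or from the descending thoracic aorta of each genotype, which gives 4 groups with 1 library each. Values are given in the order cKO arch, control arch, cKO descending, control descending throughout. By its name the Cre driver is aimed at smooth muscle cells. Whether it was active in dendritic cells was not tested. The sources used here do not say how many animals each library holds. With 1 library in each group, differences between genotypes and regions have no replicate check. They are described by size, with 95% intervals that cover counting error only.

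Dendritic cells take up antigen, cut it into peptides and show these on MHC molecules to T cells. Class II molecules reach CD4 T cells after loading with peptide in endosomes, and class I molecules reach CD8 T cells. Type 1 conventional dendritic cells (cDC1) depend on the transcription factor Irf8, carry Clec9a and Xcr1 and excel at presenting antigen taken from dead cells on class I. Type 2 cells (cDC2) depend on Irf4, carry lectins such as Cd209a and Clec10a and mainly address CD4 T cells. On maturation either kind gains Ccr7, the receptor that guides it along lymphatics to the draining lymph node.

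The class II genes are known to share a promoter layout, in which an X box and a reversed CCAAT motif (the Y box) lie just before the start and recruit the coactivator Ciita. Of the 18 genes of the class II presentation list, 13 had an entry in the RefSeq promoter table (GRCm38.p6). A chosen set of 7 class II chain genes was looked up, and all had an entry. H2-Ab1 was not in that set. Of the 7, 6 held ATTGG, the reverse complement of CCAAT, as printed in the 250 bases before their start (H2-DMa did not). ATTGG stood in 19.7% of 32851 promoters. CCAAT on either strand stood in 33.8% of them. These 6 promoters are shown, 5′ to 3′ on the strand of the gene, because they hold the motif, and capitals mark ATTGG.
H2-Aa, chr17:34287824-34288073 (minus strand): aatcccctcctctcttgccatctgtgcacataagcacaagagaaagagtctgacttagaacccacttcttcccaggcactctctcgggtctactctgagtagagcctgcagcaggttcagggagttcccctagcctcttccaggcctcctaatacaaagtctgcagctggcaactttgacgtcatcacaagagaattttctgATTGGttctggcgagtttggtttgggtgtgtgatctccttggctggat
H2-Eb1, chr17:34305617-34305866 (plus strand): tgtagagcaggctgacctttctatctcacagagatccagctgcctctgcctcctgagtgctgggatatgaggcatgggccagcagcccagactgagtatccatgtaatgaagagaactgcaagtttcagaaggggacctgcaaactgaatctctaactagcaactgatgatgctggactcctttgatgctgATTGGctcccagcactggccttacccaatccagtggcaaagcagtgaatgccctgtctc
H2-DMb1, chr17:34152941-34153190 (plus strand): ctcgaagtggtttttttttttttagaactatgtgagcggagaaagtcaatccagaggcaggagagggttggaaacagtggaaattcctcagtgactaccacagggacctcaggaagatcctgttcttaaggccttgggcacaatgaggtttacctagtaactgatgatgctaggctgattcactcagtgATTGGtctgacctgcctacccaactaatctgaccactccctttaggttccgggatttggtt
H2-Oa, chr17:34092129-34092378 (plus strand): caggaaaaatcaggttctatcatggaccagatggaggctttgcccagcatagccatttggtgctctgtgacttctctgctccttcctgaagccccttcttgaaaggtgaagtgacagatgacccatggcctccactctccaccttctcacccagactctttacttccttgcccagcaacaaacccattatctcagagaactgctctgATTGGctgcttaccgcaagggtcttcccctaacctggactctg
H2-DMb2, chr17:34144999-34145248 (plus strand): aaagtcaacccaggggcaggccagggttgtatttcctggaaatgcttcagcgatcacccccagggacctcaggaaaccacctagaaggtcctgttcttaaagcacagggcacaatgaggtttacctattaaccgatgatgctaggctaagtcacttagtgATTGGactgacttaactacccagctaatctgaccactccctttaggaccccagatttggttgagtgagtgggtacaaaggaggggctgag
H2-Ob, chr17:34238655-34238904 (plus strand): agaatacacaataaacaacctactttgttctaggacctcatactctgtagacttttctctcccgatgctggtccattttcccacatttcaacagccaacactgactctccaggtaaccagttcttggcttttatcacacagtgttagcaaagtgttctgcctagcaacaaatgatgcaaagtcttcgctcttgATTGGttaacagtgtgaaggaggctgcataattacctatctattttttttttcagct
In these promoters, in the order shown, ATTGG began 48, 59, 61, 43, 90 and 57 bases before the start. H2-Eb1 also held 1 CCAAT. These matches are descriptions of letters, and no factor binding was measured.

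The genes of the rule lie on several mouse chromosomes (mm10): Flt3 at chr5:147330741-147400489, Clec9a at chr6:129408862-129424763, Xcr1 at chr9:123852315-123862029, Cd209a at chr8:3743397-3748984, Ccr7 at chr11:99144196-99155077 and H2-Ab1 at chr17:34257689-34269419. Their levels chose the cells and are given as a description only. H2-Ab1, a chain of the class II molecule, had a median of 98.0, 102, 156 and 142 UMIs per dendritic cell. Flt3, the receptor for the growth factor that maintains dendritic cells, had a UMI in 62.9, 27.6, 52.9 and 36.7% of them. The 5 markers together had medians of 9.0, 5.0, 13.5 and 13 UMIs. At the thresholds, 21 cells stood at exactly 2 marker UMIs and 30 cells that met every other condition had 1. Another 3 cells held 5 to 9 H2-Ab1 UMIs, against 8 excluded cells with 1 to 4. The C1q condition was met narrowly by 4 cells with 3 or 4 UMIs, while 2 excluded cells had 5 to 9 and 147 had 10 or more. A further 167 cells failed for a UMI of Cd3e, Cd79a or Pecam1.

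The libraries held 49407811, 98866674, 50922575 and 50285593 UMIs in 8634, 9283, 6813 and 6351 barcodes, of which 5842, 8644, 5901 and 5206 were kept. The dendritic cells numbered 97, 29, 34 and 30, with medians of 9688, 11336, 17606 and 14602 UMIs per cell. Of them, 5 shared a barcode sequence with a kept cell of another library and 0 with another dendritic cell. The cKO arch file lists 28693 features and the others 32285, so the feature lists differ, and why was not given in the sources. Smad4, which carries both TGF-beta and BMP signals to the nucleus, stood at 68.2, 61.6, 43.2 and 50.4 CPM (counts per 1000000 UMIs of the summed cells). Smooth muscle cells, chosen by their own transcripts, had 62.3, 71.1, 89.7 and 94.4 CPM of it. The libraries read 5′ ends and the labels do not name the floxed exons, so the count does not check the deletion.

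Markers outside the rule were checked against the label. Ptprc, the pan-leukocyte antigen CD45, had a UMI in 96.9, 93.1, 94.1 and 86.7% of them. Zbtb46, a transcription factor of conventional dendritic cells, reached 57.2, 47.6, 79.6 and 34.3 CPM. The summed macrophage markers stood at 749.5, 1557, 1491 and 2185 CPM, against 9554 to 26717 CPM in the macrophages of the same libraries. B cell markers summed to 104 to 197 CPM and T cell markers to 133 to 194 CPM. RNA of smooth muscle (611 to 2647 CPM) and fibroblasts (496 to 3838 CPM) was present and lowest in the cKO arch, and one cell held up to 90.9% of the smooth muscle UMIs of a library. Erythroid and platelet genes held 6004 UMIs in the cKO arch, of which 97.7% lay in a single cell. Genes of plasmacytoid dendritic cells (Siglech, Klk1, Cox6a2 and Ccr9) reached 5 UMIs in 1 cell of the cKO arch and 2 of the cKO descending library.

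Under this rule, dendritic cells made up a larger share of the kept barcodes in the cKO arch than in the other libraries. The share was 1.66% (exact Clopper-Pearson 95% interval 1.35 to 2.02; 97 of 5842) in the cKO arch, against 0.335% (0.225 to 0.481; 29 of 8644) in the control arch. It was 0.576% in both descending libraries, with intervals of 0.399 to 0.804 (34 of 5901) in the cKO and 0.389 to 0.822 (30 of 5206) in the control. Among barcodes with a UMI of Ptprc the shares were closer, at 4.52% (3.67 to 5.50), 3.04% (2.01 to 4.39), 3.73% (2.57 to 5.23) and 2.94% (1.93 to 4.28), and every interval overlapped the others. These count the 94, 27, 32 and 26 dendritic cells with a Ptprc UMI. Of dendritic cells and macrophages together, the dendritic cells were 10.2, 8.53, 7.47 and 5.99%. The exclusions of the rule fell unevenly on the libraries. Cells that failed only for 10 or more C1q UMIs numbered 10, 38, 52 and 47. Those that failed only for a UMI of Cd3e, Cd79a or Pecam1 numbered 33, 23, 49 and 62. Both counts were larger in the descending libraries than in the cKO arch, and shares with these cells included were not tested. What digestion and capture contribute to these shares was not tested. Requiring 1000 genes and under 5% mitochondrial UMIs gave 2.41% in the cKO arch, and thinning every cell to 2000 UMIs before the rule gave 1.32% there and 0.170% in the control arch.

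**Figure D1:**
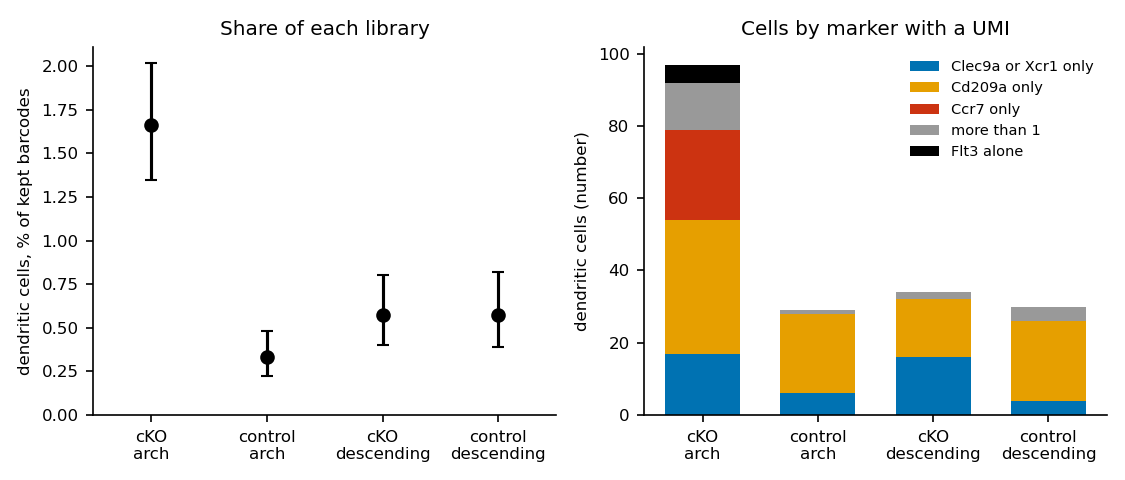
Left, dendritic cells as a percentage of kept barcodes in each of the 4 libraries, with exact Clopper-Pearson 95% intervals of counting error. Right, number of dendritic cells by marker; Ccr7 positive cells number 34 in the cKO arch, 1 in the control descending library and 0 in the others.

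Ccr7, the homing receptor of mature cells, was found almost wholly in the cKO arch. A Ccr7 UMI was found in 34 of 97 dendritic cells of the cKO arch (35.1%, 25.6 to 45.4), in 0 of 29 of the control arch, in 0 of 34 of the cKO descending library and in 1 of 30 of the control descending library (3.33%, 0.0844 to 17.2). The upper bounds of the exact intervals at 0 are 11.9% (control arch) and 10.3% (cKO descending), and 3 counts would be 10.3% and 8.82%. Thinned to 2000 UMIs per cell, the shares were 29.2, 0, 0 and 3.33% with the cKO arch again highest. Free RNA gave little Ccr7: it had a UMI in 0.188, 0.0392, 0.168 and 0% of the smooth muscle cells, whose median depth was 11779, 13366, 11014 and 12376 UMIs. Other leukocytes carried Ccr7 in all 4 libraries, with 37.9, 83.3, 61.5 and 61.6% of B cells positive.

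Cells with a UMI of Clec9a or Xcr1, the receptors for dead-cell actin and for the chemokine Xcl1 that mark cDC1, numbered 24, 7, 18 and 8. They were 24.7% (16.5 to 34.5), 24.1% (10.3 to 43.5), 52.9% (35.1 to 70.2) and 26.7% (12.3 to 45.9) of the dendritic cells. The cells that reached 5 UMIs of the plasmacytoid genes, 1 in the cKO arch and 2 in the cKO descending library, are among these. The 2 cells also held Cd209a. Cells with Cd209a, a lectin of cDC2 and of monocyte-derived cells, numbered 47, 23, 18 and 25. They were 48.5% (38.2 to 58.8), 79.3% (60.3 to 92.0), 52.9% (35.1 to 70.2) and 83.3% (65.3 to 94.4). Among dendritic cells both control libraries had the larger Cd209a shares and both cKO libraries the smaller ones. Of kept barcodes, in contrast, Cd209a positive dendritic cells were 0.805% (0.592 to 1.07), 0.266% (0.169 to 0.399), 0.305% (0.181 to 0.482) and 0.480% (0.311 to 0.708), highest in the cKO arch. In smooth muscle cells of the arch, which should lack these genes, Cd209a had a UMI in 0.282 and 0.196% of cKO and control cells and Clec9a and Xcr1 in 0. After thinning, Clec9a or Xcr1 was found in 11.5, 22.2, 39.4 and 6.67% and Cd209a in 34.4, 55.6, 36.4 and 70.0%. Over all libraries 43 cells had Clec9a or Xcr1 alone, 97 Cd209a alone and 25 Ccr7 alone, all of the last in the cKO arch. Another 20 held more than 1 of these marks and 5, in the cKO arch, Flt3 alone. Of the 20, 10 combined Clec9a or Xcr1 with Cd209a, 6 Cd209a with Ccr7, and 4 Clec9a or Xcr1 with Ccr7.

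Dendritic cells were compared with the macrophages of the same libraries, chosen as barcodes with 5 or more C1q UMIs and none of Cd3e, Cd79a and Pecam1 (852, 311, 421 and 471 cells). UMIs were summed per library and cell kind and tested with edgeR's quasi-likelihood test, with the library as a block and Benjamini-Hochberg adjustment over all genes; adjusted p under 0.05 counts as called. Of 9852 genes, 681 were higher (6.91%) and 768 lower (7.80%) in the dendritic cells. Without the cKO descending library the counts were 243 and 308, and without the control arch 293 and 386. Samples of one library are not separate animals of a group, so p-values measure how alike the difference was in the 4 libraries. Genes used by either rule were left out.

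Class II presentation genes were higher in dendritic cells than in macrophages, with 10 of 17 tested called higher and 2 lower (median log2 difference 1.10, against -0.03 over all genes). H2-Aa, the partner chain of H2-Ab1, stood at 13893, 10984, 15405 and 12958 CPM in the dendritic cells and at 5869, 5659, 9535 and 4786 CPM in the macrophages. Every dendritic value lay above every macrophage value (log2 difference 1.16, SE 0.16; adjusted p = 0.00365 by edgeR's quasi-likelihood test). Cd74, the invariant chain that fills the class II groove until peptide arrives, was 29334, 28149, 27638 and 31501 CPM against 13682, 14497, 18668 and 11017 CPM. That is a log2 difference of 1.11 (SE 0.17; edgeR adjusted p = 0.00597).

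Genes that edit the class II peptide load were higher too. H2-DMb2, a chain of the H2-DM complex that exchanges peptides, reached 360.2, 283, 674 and 513 CPM against 91.4, 43.2, 256 and 69.4 CPM. Its log2 difference was 2.30 (edgeR adjusted p = 0.00135), and H2-DMa and H2-DMb1 were higher by 1.29 and 1.45 on the log2 scale (0.00435 and 0.00146). H2-Oa, a chain of the H2-O complex that restrains H2-DM, was at 121, 64.4, 89.9 and 54.5 CPM in dendritic cells and at 1.86, 1.56, 2.51 and 0.623 CPM in macrophages. No macrophage value came near the dendritic ones (log2 difference 5.79, SE 0.28; edgeR adjusted p = 1.0e-04). H2-Ob, its partner, was at 53.2, 106, 83.0 and 54.5 CPM against 4.17, 3.89, 8.46 and 2.49 CPM (4.03; adjusted p = 2.93e-04). Ciita, the master coactivator of class II genes, was at 110.4, 148, 156 and 82.7 CPM against 22.6, 43.6, 73.4 and 33.7 CPM. Lgmn, an endosomal protease, went the other way, with 115, 39.2, 34.6 and 54.5 CPM in dendritic cells and 880.3, 648, 633 and 601 CPM in macrophages (-3.52; adjusted p = 2.93e-04).

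Because H2-Ab1 was required of the dendritic cells and not of the macrophages, the other class II genes are not independent of the rule. With macrophages also held to 5 or more H2-Ab1 UMIs, 559 of 9185 genes were called higher (6.09%) and 708 lower (7.71%). Of the class II list 9 of 17 were then higher and 2 lower, with a median log2 difference of 0.61. H2-Aa and Cd74 remained called at smaller differences of 0.65 and 0.61 (edgeR adjusted p = 0.0201 and 0.0325). H2-Eb1, called at 0.91 against all macrophages, was not called at 0.39 (adjusted p = 0.239). Its call against all macrophages was also lost with no block (0.179) and without the cKO arch (0.0622), control arch (0.121) or control descending library (0.0899). H2-DMb2 stayed at 1.81, Ciita at 1.19 and H2-Oa at 5.40.

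**Figure D2:**
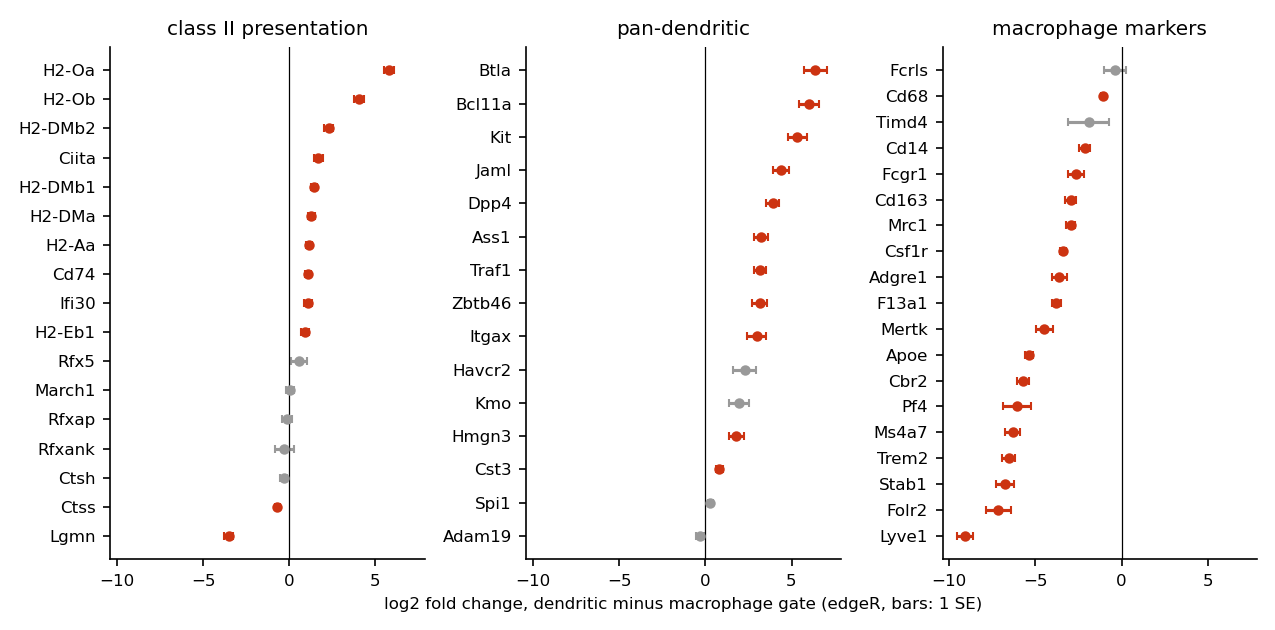
For selected list genes, log2 difference of dendritic cells minus macrophages, with 1 SE, from edgeR's quasi-likelihood fit over the 4 libraries. Red points have an adjusted p under 0.05 and grey points do not; H2-Oa stands furthest up among the class II genes at 5.79, and Csf1r lies at -3.41.

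Genes of the dendritic lineage that the rule did not use were also higher, with 12 of 16 tested pan-dendritic genes called higher and 0 lower (median 3.06). Zbtb46 was at 57.2, 47.6, 79.6 and 34.3 CPM against 2.78, 11.7, 6.58 and 7.27 CPM in macrophages (log2 difference 3.16, SE 0.43; edgeR adjusted p = 0.00315). Btla, an inhibitory receptor of lymphocytes and dendritic cells, was at 74.3, 53.2, 76.1 and 24.2 CPM against 0.155, 0, 3.14 and 0.208 CPM (6.38; adjusted p = 9.47e-04). Kit, the receptor for stem cell factor, was at 70.2, 22.4, 48.4 and 20.2 CPM against at most 2.51 CPM (5.33). Dpp4, a surface peptidase, differed by 3.90, and Bcl11a, a transcription factor of lymphoid and dendritic progenitors, by 6.02. Itgax, which encodes CD11c, was at 229, 118, 114 and 78.7 CPM against 133, 14.0, 7.84 and 2.91 CPM, and overlapped between the kinds. Its log2 difference was 2.97 (edgeR adjusted p = 0.0136; edgeR adjusted p = 0.0860 without the cKO descending library and 0.0798 without the control arch). Spi1, Havcr2, Kmo and Adam19 were not called, with differences of 0.29, 2.27, 1.95 and -0.32.

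Transcription factors split by lineage. Irf8, the driver of cDC1, was at 552, 378, 856 and 218 CPM against 147, 91.8, 128 and 88.5 CPM (log2 difference 2.08, SE 0.24; edgeR adjusted p = 0.00168). Id2, a repressor needed by cDC1, was at 269, 283, 301 and 242 CPM against 135, 46.7, 45.5 and 48.2 CPM (2.22; 0.00239). Maf, a factor of resident macrophages, lay far below, at 7.02, 2.80, 6.92 and 20.2 CPM against 297, 536, 709 and 504 CPM (-5.65, SE 0.37; adjusted p = 1.90e-04). Irf4 and Relb were not called, at 1.13 (adjusted p = 0.111) and 1.34 (0.0914). In all, 9 of 28 factors on the list were called higher and 4 lower.

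Growth factor receptors, pattern receptors and chemokines separated the kinds further. Csf1r, the macrophage growth factor receptor, was at 73.2, 72.8, 83.0 and 76.7 CPM against 689, 870.0, 1021 and 896 CPM (-3.41, SE 0.17; edgeR adjusted p = 1.0e-04). Its dendritic values were nearly alike in the 4 libraries. Tgfbr2, the ligand-binding receptor for TGF-beta, was at 51.2, 36.4, 36.3 and 48.4 CPM against 145, 227, 228 and 216 CPM (-2.11; 0.00148). Of 28 TGF-beta and BMP pathway genes tested, 3 were called higher and 5 lower. Of 25 pattern recognition genes 3 were called higher and 12 lower. Tlr3, the endosomal sensor of double-stranded RNA, differed by 1.98 (adjusted p = 0.00534) and Tlr4, the sensor of bacterial lipopolysaccharide, by -3.02 (0.00120). Ly75, the endocytic receptor DEC-205, differed by 3.97 (0.00501). Of 23 chemokine ligands and receptors 2 were called higher and 11 lower, among them the monocyte attractants Ccl2 (-3.64) and Ccl12 (-7.54; 6 UMIs in dendritic cells and 7562 in macrophages).

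The 10 highest called genes by the fixed rule were Sept3, Gpr141b, Klrd1, Btla, P2ry10, Gcsam, Bcl11a, Itgae, H2-Oa and Ffar4, with log2 differences from 6.58 down to 5.34. Klrd1, the CD94 subunit of natural killer receptors, was at 239.8, 42.0, 27.7 and 70.6 CPM in the dendritic cells and at most 2.32 CPM in macrophages. The lowest included Cd209f and Cd209g, lectin relatives of Cd209a. Cd209f had 0 UMIs in dendritic cells and 11181 in macrophages, which makes it at least 531-fold lower, and Cd209g was at least 192-fold lower. Reads of such near copies can be split by counting, so their values are uncertain. Lyve1 and Prg4 of resident and serous macrophages differed by -9.10 and -10.07. Of 20 macrophage markers outside the rule, 0 were called higher and 18 lower (median -4.14); Fcrls (-0.36) and Timd4 (-1.91) were not called.

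Monocytes, the other close relatives, were compared after the gate first written had to be narrowed. That gate gave 367 of 6707 genes called higher (5.47%) and 543 lower (8.10%) in dendritic cells. In it 61.7% of the control arch and 44.9% of the control descending cells held 10 or more UMIs of the fibroblast gene Dcn. With at least 1 Ptprc and under 2 Dcn UMIs, a limit added after the data were seen, 192, 15, 43 and 35 monocytes remained. Of 5622 genes, 57 were called higher (1.01%) and 16 lower (0.285%) in dendritic cells by edgeR's quasi-likelihood test. Without the cKO descending library only 4 and 1 were called, without the control arch 16 and 5, without the control descending library 34 and 9, and without the cKO arch 98 and 56. H2-Ob was called in each of these fits. It was at 53.2, 106, 83.0 and 54.5 CPM in dendritic cells and at 1.37, 0, 0 and 0 CPM in monocytes (log2 difference 6.01, SE 0.51; adjusted p = 0.00368). Itgae, the CD103 integrin that binds E-cadherin, had 152 UMIs against 0, at least 50.3-fold higher (adjusted p = 0.0166; 0.122 without the cKO descending library). H2-Oa differed by 6.04 (0.00669; 0.0943 without that library). Of the pan-dendritic list 7 of 15 were called higher and of the class II list 5 of 15, with none lower.

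B cells also present antigen on class II and gave the reverse order for the H2-O complex. The comparison used 58, 24, 78 and 73 B cells (at least 2 Cd79a UMIs), and of 5719 genes 725 were called higher (12.7%) and 581 lower (10.2%) in dendritic cells. Without the cKO descending library 441 and 334 were called. H2-Aa was at 13893, 10984, 15405 and 12958 CPM against 4233, 5884, 5867 and 5011 CPM in B cells (log2 difference 1.29, SE 0.13; edgeR adjusted p = 2.08e-04). H2-DMa was higher by 1.57 and H2-DMb1 by 1.69. H2-Oa was at 121, 64.4, 89.9 and 54.5 CPM against 138, 306, 205 and 179 CPM, lower in each library (-1.33, SE 0.27; adjusted p = 0.00673). H2-Ob was at 53.2, 106, 83.0 and 54.5 CPM against 176, 484, 185 and 235 CPM (-1.84, SE 0.23; 5.79e-04). B cells and monocytes were held to no H2-Ab1 minimum and gates matched for it were not tested, so the higher H2-Aa is not independent of the rule. Each of these B cell calls held when any 1 library was left out. B cell markers themselves were lower in 14 of 14 tested.

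The 43 cells with Clec9a or Xcr1 alone (17, 6, 16 and 4 per library) were compared with the 97 cells with Cd209a alone (37, 22, 16 and 22) by the same edgeR test, and genes of the rule were left out. Of 3457 genes, 92 were called higher in the Clec9a or Xcr1 cells (2.66%) and 99 higher in the Cd209a cells (2.86%). Without the cKO descending library the counts were 38 and 45, without the control arch 54 higher, and without the cKO arch 59 higher. Of 16 tested cDC1 genes 13 were higher and 0 lower (median 3.91), and of 15 cDC2 genes 0 were higher and 11 lower (median -4.05). The lists were chosen with earlier results of these libraries known.

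Irf8 and Irf4 divided the cells in opposite directions. Irf8 was at 1524, 1177, 1558 and 1118 CPM in the Clec9a or Xcr1 cells and at 48.9, 0, 3.70 and 14.5 CPM in the Cd209a cells (log2 difference 6.55, SE 0.59; edgeR adjusted p = 2.32e-04). Irf4 had the reverse order, with 0, 8.72, 0 and 11.5 CPM against 80.6, 82.0, 152 and 113 CPM (-4.91, SE 0.71; adjusted p = 0.00243). Zeb2, a repressor active in cDC2, differed by -3.47. Batf3, the factor that sustains Irf8 in cDC1, was not called, at 109.6, 157, 139.8 and 231 CPM against 77.7, 250.3, 189 and 238 CPM. Its log2 difference was -0.09 (SE 0.29; adjusted p = 0.910). Klf4 was not called either, at -0.81 (0.169).

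Uptake and antigen handling genes of cDC1 were higher in the Clec9a or Xcr1 cells. Cd207, the lectin langerin, was at 188, 139.5, 139.8 and 80.7 CPM and at 0 in all 4 Cd209a sums, at least 58.0-fold higher. Tlr3 was at 157, 95.9, 177 and 80.7 CPM against 5.76, 0, 0 and 0 CPM (5.96; edgeR adjusted p = 3.89e-04). Cadm1, an adhesion molecule of cDC1, was at 125, 174, 266 and 161 CPM against 0, 8.63, 3.70 and 8.69 CPM (5.13). Naaa, a lysosomal lipid hydrolase, was at 1216, 1369, 1545 and 669 CPM against 164, 189.9, 178 and 295 CPM (2.60, SE 0.31; 8.98e-04). Ppt1, a lysosomal thioesterase, differed by 4.30 (adjusted p = 1.11e-04). Psmb9, a subunit of the immunoproteasome that cuts peptides for class I, was at 694, 567, 726 and 622 CPM against 216, 125, 92.5 and 104 CPM (2.42; 0.00120). Of 20 class I and cross-presentation genes tested, 6 were called higher and 1 lower. Tap1, the peptide pump of class I loading, differed by 1.51 (0.0176), and its adjusted p was 0.117 without the cKO descending library and 0.0513 without the control arch.

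The Cd209a cells carried lectins, Fc receptors and chemokines. Ccl9, a chemokine for myeloid cells, was at 265, 328, 392 and 391 CPM and had 0 UMIs in the Clec9a or Xcr1 cells, where it was at least 78.3-fold lower. Mrc1, the mannose receptor, had 299 UMIs against 0, at least 57.3-fold. Clec10a, a galactose lectin, was at 400.2, 155, 215 and 368 CPM against 52.2, 0, 0 and 0 CPM (-4.45; edgeR adjusted p = 0.00271). Sirpa, the receptor for CD47, was at 199, 138, 222 and 165 CPM against 36.5, 0, 3.41 and 0 CPM (-4.05; 0.00346). Itgam, which encodes CD11b, differed by -4.71 (5.32e-04). Retnla, a secreted product of alternatively activated cells, was uneven among libraries, at 311, 13514, 10653 and 7775 CPM against 10.4, 52.3, 6.82 and 23.1 CPM (-8.42). The cKO arch had far less of it than the other libraries. Cd209d, a neighbour of Cd209a in sequence, was lower by -5.82 in the Clec9a or Xcr1 cells and may share reads with it.

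H2-Aa and Cd74 were not called between the types: H2-Aa differed by 0.18 (edgeR adjusted p = 0.605) and Cd74 by -0.03 (0.947). Of 14 class II genes 1 was called higher, H2-Ob, and 2 lower, Ctsh and Ctss. H2-Ob was at 78.3, 218, 147 and 149.9 CPM in Clec9a or Xcr1 cells against 57.6, 51.8, 18.5 and 29.0 CPM (1.95; adjusted p = 0.0230). That call was lost without the cKO descending (0.105), the control arch (0.0735) or the control descending library (0.0576). Ctss, an endosomal protease, differed by -1.47 (edgeR adjusted p = 0.0189), with an adjusted p of 0.227 with no block, 0.115 without the cKO descending library and 0.0737 without the control arch. Ctsh, an endosomal cathepsin, was at 146, 131, 147 and 92.2 CPM against 432, 345, 548 and 591 CPM (-1.78; 0.00388). Of the pan-dendritic genes 6 of 13 were called higher and 0 lower in the Clec9a or Xcr1 cells, among them Btla (3.42) and Cst3 (2.18), the secreted inhibitor of cathepsins.

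**Figure D3:**
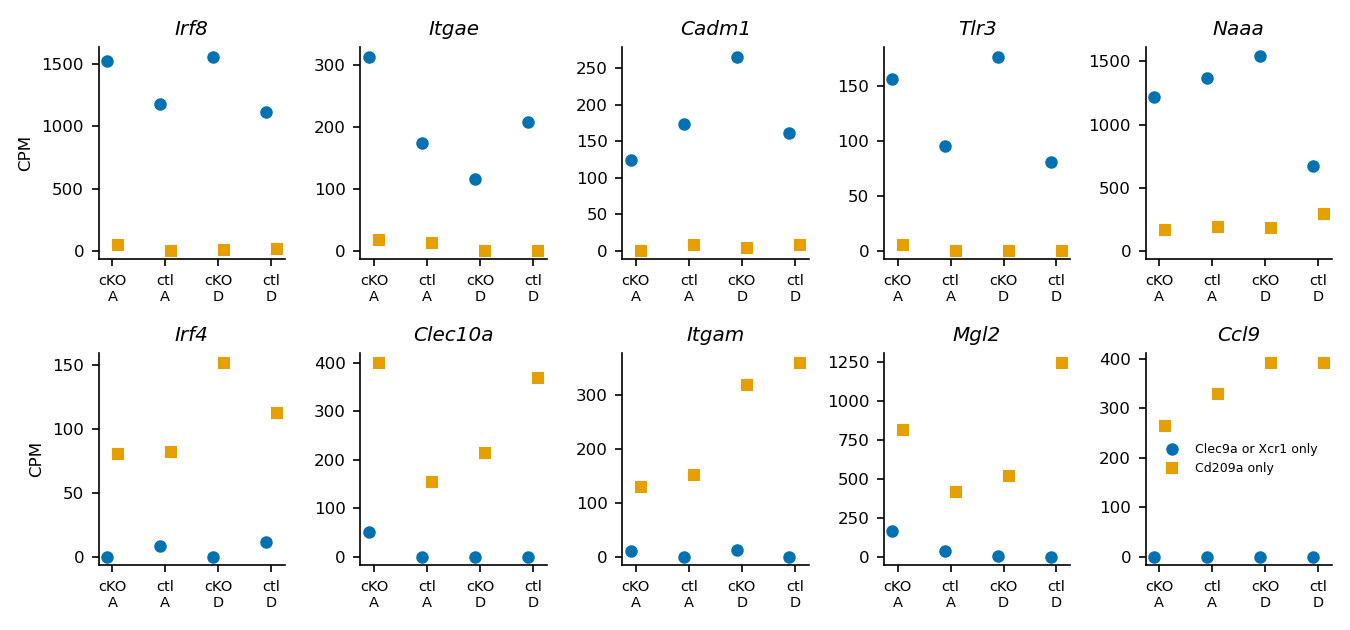
CPM of selected genes in the summed Clec9a or Xcr1 only cells and the summed Cd209a only cells of each library (A, arch; D, descending; ctl, control). Irf8 lies between 1118 and 1558 CPM in the former and at or below 48.9 CPM in the latter, and Ccl9 has the opposite pattern.

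The 25 dendritic cells with Ccr7 alone, all in the cKO arch, were set beside the 37 Cd209a only and 17 Clec9a or Xcr1 only cells of that library. These are cells of 1 library, so there is no test, and a gene counts as different at 2-fold or more with at least 20 UMIs. Against the Cd209a cells 16.8% of 3762 genes were higher and 17.9% lower. Of 28 mature dendritic cell genes counted, 27 were higher and 0 lower, with a median log2 ratio of 3.53. The cells were chosen by Ccr7, itself a gene of maturation, so these values describe cells so chosen. Against the Clec9a or Xcr1 cells, where the background was 18.5% of 2877 genes higher and 14.7% lower, 27 of 28 were higher (median 4.2, or 3.64 with genes at 0 set to their bound). Summed over the list, the Ccr7 cells had 26042 CPM, the Cd209a cells 2283 and the Clec9a or Xcr1 cells 1686. Per cell, the Ccr7 cells ranged from 50.5 to 738 UMIs per 10000.

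Fscn1, the actin bundler of mature dendritic cell projections, was found mainly in them. It had 344 UMIs in the Ccr7 only cells and 1 in each of the other kinds, or 1657, 2.88 and 5.22 CPM. Of 19 cells with an Fscn1 UMI in the cKO arch, 16 were Ccr7 only cells. Ccl22, a chemokine for regulatory T cells, stood at 1831, 66.2 and 5.22 CPM in Ccr7, Cd209a and Clec9a or Xcr1 cells. Socs2, a feedback inhibitor of cytokine receptors, stood at 424, 5.76 and 10.4 CPM. Relb, the NF-kappaB subunit of dendritic maturation, stood at 621, 43.2 and 36.5 CPM.

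Genes that engage T cells were higher as well, with 10 of 15 co-signalling genes counted higher and 1 lower against the Cd209a cells. Cd40, the receptor for T cell help, was at 529.9, 40.3 and 162 CPM in Ccr7, Cd209a and Clec9a or Xcr1 cells. Cd86, the costimulatory ligand of CD28, was at 535, 83.5 and 209 CPM. Cd274, the inhibitory ligand PD-L1, was at 308, 54.7 and 78.3 CPM and Pdcd1lg2, its relative, at 202, 34.6 and 26.1 CPM. Stimulatory and inhibitory ligands were thus both higher. Il12b, a subunit of interleukin 12, had 114 UMIs against 0 in both other kinds, but 1 cell held 83.5% of the UMIs of that gene in the whole cKO arch. Ccl5, a T cell attractant, was at 7640.1, 31.7 and 0 CPM.

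Antigen presentation genes of the Ccr7 cells were read by class. Class I and cross-presentation genes were higher in 16 of 24 and lower in 2 against the Cd209a cells, for example H2-K1, a class I heavy chain, at 4278, 1333 and 1994 CPM. Class II genes were higher in 1 of 14 and lower in 5. H2-DMa, a chain of the peptide exchanger, was at 164, 858 and 788 CPM (log2 ratio -2.37, -2.95 to -1.87, against the Cd209a cells). Against the Clec9a or Xcr1 cells 6 of 22 class I genes were higher and 2 lower, and 3 of 13 class II genes higher and 4 lower. H2-Aa was at 10381, 13902 and 14624 CPM and Cd74 at 25030.3, 31327 and 28894 CPM, both within 2-fold. Interferon-stimulated genes were higher in 22 of 29 against the Cd209a cells, but in only 5 of 31 against the Clec9a or Xcr1 cells.

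**Figure D4:**
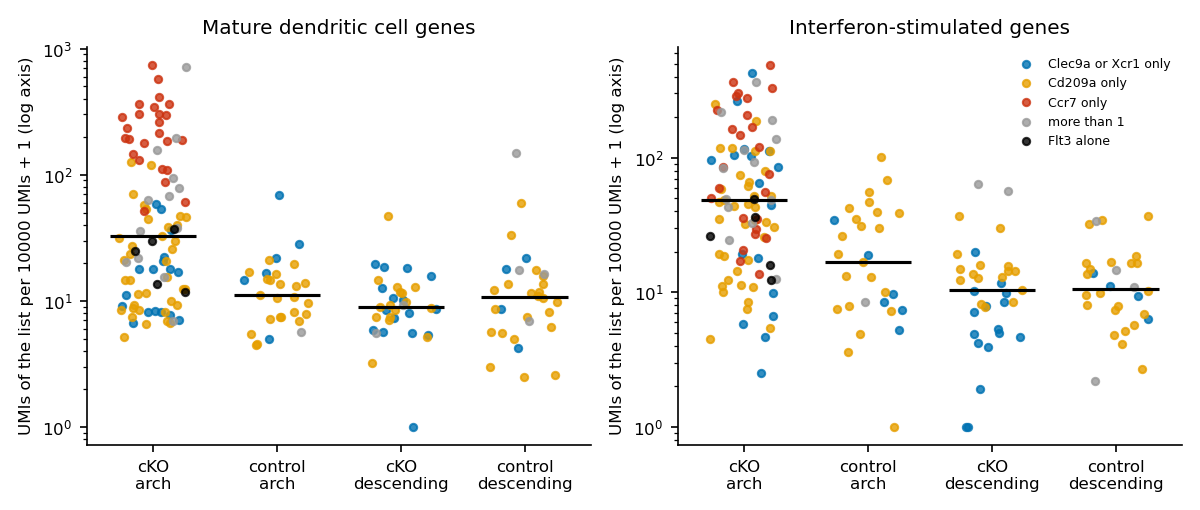
UMIs of the mature dendritic cell genes and of the interferon-stimulated genes per 10000 UMIs of each dendritic cell, plus 1, on a log axis, by library; bars mark medians. The cKO arch has the highest medians, 31.8 for the mature list and 47.8 for the interferon list, against at most 10.2 and 15.8 in the others.

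Between cKO and control arch, dendritic cells differed in mature and interferon-stimulated genes, among other lists. A gene counts here as higher or lower at 2-fold or more in CPM with 20 or more UMIs over the pair of libraries. Of 6626 genes, 12.5% were higher in the cKO arch (827) and 10.4% lower (690). Median-of-ratios scaling in place of total UMIs moved log2 ratios by 0.16 and gave 1048 higher and 540 lower. Mature dendritic cell genes were higher in 25 of 30 counted and lower in 1 (median log2 ratio 2.92, or 2.78 with genes at 0 set to their bound), against a median of 0.39 in macrophages. The rule admits cells through Ccr7, which dendritic cells gain on maturation, so the mature list is not independent of the rule. Interferon-stimulated genes were higher in 28 of 32 and lower in 0 (median 2.46, bound 2.40), against 0.60 in macrophages. Markers of other cells differed as well, and their part in these results was not tested. Fibroblast markers were lower in 7 of 8 (median -2.49) and smooth muscle markers in 8 of 10 (-2.08), erythroid and platelet markers higher in 6 of 6 (5.93, with 97.7% of the UMIs in 1 cell), and plasmacytoid genes higher in 6 and lower in 1 of 8 (2.52).

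Most UMIs of the mature genes lay in Ccr7 positive cells. Summed, the genes held 9228, 1285, 1067 and 1989 CPM in the 4 libraries. Fscn1 had 408 UMIs in 19 cells of the cKO arch, against 0 in the control arch, at least 48.7-fold. Ccl22 had 482 UMIs in 29 cells against 0, at least 57.6-fold, with 31.5% of them in 1 cell. Ccl5 had 2693 UMIs in 34 cells against 0, at least 322-fold, with 39.0% in 1 cell. Without the Ccr7 positive cells, an alternative added after the data were seen, 9 of 20 mature genes were higher and 2 lower, with a median of 0.70. List counts in such reduced sets of cells, here and below, stand without the share over all genes in the same set. Aldh1a2, the retinoic acid enzyme, ran against the list, at 6.02 CPM in the cKO arch against 84.0 CPM in the control arch (log2 ratio -3.71, -5.36 to -2.51).

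The interferon-stimulated genes differed also outside the Ccr7 cells, where 24 of 29 were higher and 0 lower (median 1.95). Isg15, a ubiquitin-like modifier, was at 1281, 75.6, 3.46 and 26.2 CPM in the 4 libraries, and its cKO to control log2 ratio in the arch was 4.06 (3.53 to 4.69). Without Ccr7 positive cells the ratio was 2.78 and in macrophages 1.21. Irf7, the factor that amplifies type I interferon, was at 544, 14.0, 10.4 and 4.04 CPM (5.14, 4.05 to 6.91; 4.65 without Ccr7 positive cells). Cxcl10, the interferon-induced attractant of T cells, was at 219.7, 2.80, 0 and 0 CPM. Among Cd209a positive cells alone 20 of 25 list genes were higher and 1 lower in the cKO arch (median 1.61). The Clec9a or Xcr1 only cells had 9812 CPM of the list in the cKO arch against 1360.4 in the control arch, and 1 cell held 37.8% and 60.9% of these UMIs. Summed over the list, dendritic cells had 8479, 2322, 1060.1 and 1291 CPM. T cells, chosen by Cd3e UMIs, had 6711, 1622, 2051 and 2228 CPM. Macrophages had 6969, 5838, 2003 and 2781 CPM, and monocytes as first gated 7749.5, 6299.6, 2110.5 and 2939 CPM. B cells had 2599.7, 2646, 1535 and 1387 CPM and smooth muscle cells 759, 463, 294 and 302 CPM. Fibroblasts were lower in the cKO arch, at 3207 against 4738 CPM. The higher level in the cKO arch was thus not particular to dendritic cells.

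Class I genes were higher in 10 of 24 and lower in 1, and class II genes in 4 and 2 of 16. H2-K1 was at 2357 CPM in the cKO arch against 703 CPM in the control arch (log2 ratio 1.74, 1.56 to 1.94), and B2m, the light chain of class I, at 2449 and 801 CPM. The macrophages had ratios of 1.16 and 1.03 for these genes, in the same direction. H2-Aa, in contrast, differed by 0.34 and Cd74 by 0.06. Of 19 cDC1 genes 2 were higher and 7 lower, for instance Batf3, at 91.3 and 224 CPM (-1.30, -1.74 to -0.84). Naaa, at 330.1 and 571 CPM, stayed within 2-fold.

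Some genes with large ratios in the arch had ratios of the same sign in macrophages or rested on few cells. Plac8 and Ly6c2, markers of young monocytes, were higher in the cKO arch dendritic cells at 597 and 521 CPM against 5.60 and 0 CPM. In macrophages their ratios were 3.78 and 4.44. Cd7, a lymphoid surface molecule, had 125 UMIs in 19 cells against 0, at least 14.9-fold, and 0.25 in macrophages. Retnla was lower in the cKO arch at 118 against 8788 CPM, as it was in macrophages (-2.12). Fam89b and Tomm6 had ratios of -5.70 and -4.44 in dendritic cells and of -6.13 and -3.70 in macrophages. What the differing feature list of the cKO arch file contributes to such ratios was not tested. For Igf1 and Rarres2, 97.0 and 84.6% of the control arch UMIs lay in 1 cell.

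**Figure D5:**
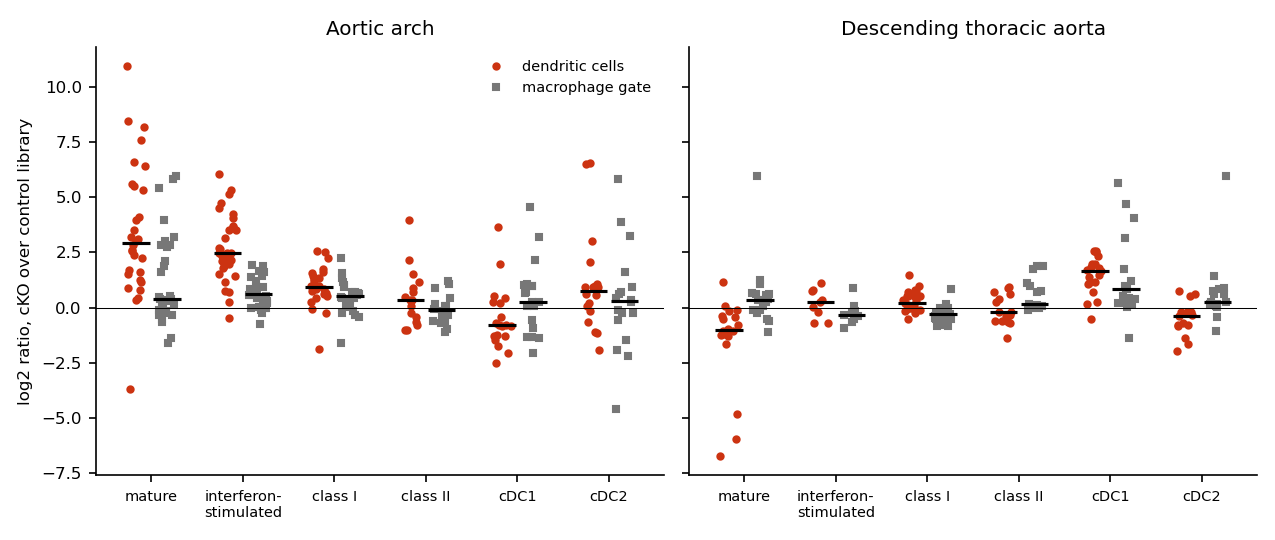
Log2 ratio of cKO to control CPM for each gene of the named lists in dendritic cells (red) and macrophages (grey), for both regions; bars mark list medians. The mature and interferon lists have dendritic medians of 2.92 and 2.46 in the arch, and the cDC1 list one of 1.65 in the descending aorta.

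In the descending aorta fewer genes differed between cKO and control dendritic cells, with 3.89% of 6268 genes higher in the cKO and 7.12% lower. The arch pair holds the cKO arch library, with a differing feature list and 97 dendritic cells. What either contributes to its larger counts was not tested. Of the cDC1 genes, 15 of 19 were higher and 0 lower (median log2 ratio 1.65, against 0.83 in macrophages). Irf8 was at 856 CPM in the cKO and 218 CPM in the control (1.97, 1.67 to 2.29), Tlr3 at 89.9 and 14.1 CPM (2.58, 1.53 to 4.05) and Cadm1 at 137 and 38.3 CPM (1.81, 1.10 to 2.64). This went with the larger share of Clec9a or Xcr1 positive cells in the cKO, 18 of 34 against 8 of 30. The 18 include the 2 cells that reached 5 UMIs of the plasmacytoid genes. Among Cd209a positive cells alone 1 of 9 cDC1 genes was higher and 3 were lower. Mgl2, a cDC2 lectin, was at 244 CPM in the cKO and 944 CPM in the control (-1.95, -2.24 to -1.68).

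Mature and interferon genes did not repeat the arch pattern in the descending aorta. Of 18 mature genes counted 1 was higher in the cKO and 9 lower (median -1.01), but 1 control cell held 49.6% of the UMIs of the list. Without Ccr7 positive cells 3 of 14 were higher and 1 lower, and with the highest doublet scores removed 1 and 2 of 12. Of 9 interferon-stimulated genes counted 1 was higher and 0 lower. Adipocyte genes led the lower side: Car3, a carbonic anhydrase of fat, had 550 UMIs in the control and 1 in the cKO, and 93.1% of the 550 lay in 1 cell. Siglech, a plasmacytoid marker, had 37 UMIs in 2 cells of the cKO and 0 in the control.

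Between regions, the cKO arch was also compared with the cKO descending library. This pair shares the cKO arch cells, and the differing feature list of their file, with the comparison of genotypes. Of 7154 genes 11.5% were higher in the arch (820) and 11.1% lower (791), or 990 and 623 after median-of-ratios scaling. Mature genes were higher in 28 of 31 and lower in 1, and interferon-stimulated genes in 32 of 33. Isg15 had 1277 UMIs in the arch and 2 in the descending library. Fscn1 had 408 against 0, at least 78.9-fold. Of 20 cDC1 genes 2 were higher and 14 lower in the arch, among them Cadm1, at 26.1 and 137 CPM (-2.37, -3.09 to -1.73).

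The 2 control libraries differed in 3.69% of 5501 genes toward the arch and 8.0% toward the descending aorta. Mature genes were higher in 2 and lower in 8 of 19 in the arch, and interferon-stimulated genes higher in 3 of 11. The mature genes turned without Ccr7 positive cells, to 3 higher and 0 lower of 14 (median log2 ratio 0.49 in place of -0.45), and without the highest doublet scores, to 2 and 0 of 11; 1 control descending cell held 49.6% of the UMIs of that list. Mgl2 was at 344 CPM in the control arch and 944 CPM in the control descending library (-1.45, -1.75 to -1.17). H2-Eb1 was at 5618 and 3993 CPM, within 2-fold. Many of the largest ratios rested on single cells, as for the fibroblast gene Lum, with 96.9% of its 98 control arch UMIs in 1 cell.

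Dividing dendritic cells were present in every library. Cells with at least 2 UMIs of Mki67 and Top2a together, a pair of genes of the dividing cell, numbered 7, 6, 4 and 3, or 7.22% (2.95 to 14.3), 20.7% (7.99 to 39.7), 11.8% (3.30 to 27.5) and 10.0% (2.11 to 26.5). These intervals overlap. Against macrophages 7 of 26 cell cycle genes were called higher and 0 lower, but Mki67, at 1.05 (edgeR adjusted p = 0.0297), was not called once the highest doublet scores were removed (0.214), nor without the cKO descending (0.163), control arch (0.147) or control descending library (0.0967). Between libraries the direction of the cell cycle list held in some pairs and turned in others when those cells were removed. In the cKO against the control arch 0 of 22 genes were higher and 13 lower, and 0 of 21 and 13 without the highest doublet scores. Among Cd209a positive cells of the arch 1 of 11 was higher and 0 lower. In the cKO arch against the cKO descending library 0 of 26 were higher and 18 lower, and without those scores 10 of 17 were higher and 0 lower. In the cKO against the control descending library 7 of 25 were higher and 1 lower, and without the highest doublet scores 0 of 14 were higher and 10 lower.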

How the data were processed

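Single aortic cells were profiled in 4 libraries (10x Chromium). The deposited matrices hold UMI counts per gene and barcode; per the submitters' processing notes the authors used Cell Ranger 6.1.1 and mm10, while per the file headers it was version 6.1.2. Its annotation release was not given in the sources used here. All 27734 gene identifiers common to the files were analysed. Members, gene lists (29) and tests were chosen with earlier results of these data known.

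UMI counts were summed per library and cell kind. Differences within libraries were tested with edgeR 4.0.16 (R 4.3.3) quasi-likelihood fits, TMM scaling, filterByExpr and the library as a block; 2 kinds from one library are paired by origin, since they come from the same cell suspension. Where the labels say nothing of separate animals, p-values measure only the spread between these libraries. Macrophages, monocytes (3 or more UMIs of Ly6c2, Plac8 and Ccr2, and Lyz2), B cells, and smooth muscle cells (5 or more Myh11 UMIs, 0 of Ptprc and Pecam1) were chosen by UMIs. Subset sums were first planned at 10 or more cells, which 2 libraries held for both subsets where 3 are needed, so sums of 4 or more cells were used, chosen after seeing the data. Genotypes and regions have 1 library each: log2 ratios of CPM used a prior of 0.5 UMI, with exact conditional 95% intervals, and shares have exact Clopper-Pearson intervals. Intervals and limits for 0 cover counting error only. Named genes are the 10 highest and 10 lowest called per test, with a mean of at least 10 CPM, the 8 highest and lowest per ratio with at least 30 UMIs, and members of the lists; others were chosen after their values were seen.

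Doublets were kept in the reported values. As an alternative, the highest Scrublet scores (scanpy 1.11.5; 0.8% per 1000 barcodes) were removed, which took 2, 3, 6 and 4 dendritic cells. On simulated counts, 4-fold changes were called for 88.4% of changed genes against macrophages (9920 genes) and 94.3% between subsets (3520 genes), and 2-fold changes for 14.3 and 22.3%. Only genes with many UMIs were changed, with the same dispersion for every gene and no difference between libraries. Recovery for rarer or more variable genes was not tested. Other alternatives used DESeq2 1.42.0, other filters, other thresholds of the rule and each library left out. Values of some single genes of the lists are not reported here.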

Additional observations from a re-analysis of the deposited data

Results flagged for a closer look

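Of 32 genes compared, 10 had cKO to control log2 ratios of opposite sign in the 2 regions, each at least 2-fold. The 32 are a selection and not all genes counted. The 10 stand without the share over all genes, so they do not show how common such genes are. With 1 library per group the difference between regions was not tested. Fscn1, the actin bundler of mature dendritic cells, had 8.19 (arch) and -5.95 (descending), where 1 control cell held 88.5% of its UMIs. The chemokine Ccl22 had 8.43 and -1.25 and the amino acid oxidase Il4i1 7.58 and -4.83, with 100.0% of the control descending UMIs of both in 1 cell. Il12b had 6.58 and -6.70, with 83.5% of the arch UMIs and 65.9% of the descending UMIs in 1 cell. For Marcksl1 (2.59 and -1.30), Relb (2.57 and -1.07) and Traf1 (2.83 and -1.19), 1 control descending cell held 59.0, 54.8 and 42.9%. Of the cDC1 genes, Cadm1 had -1.24 and 1.81 and Gpr141b -2.52 and 2.58. The cDC2 lectin Clec10a had 1.07 and -1.38.

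The cKO arch file alone lists a feature for the red fluorescent reporter, which no comparison used. It had a UMI in 86 of 97 dendritic cells (88.7%), with a median of 2.00 UMIs, and 1 cell reached 16 UMIs. Smooth muscle cells of that library had a median of 6.0 UMIs, and 352 of 1062 reached 16. The feature also had a UMI in 72.2% of macrophages and 82.8% of B cells there. What free RNA contributes to it was not tested.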

How the results depend on the processing

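Of 228 alternative values for 34 counts and shares, 169 stayed within the limits set for them. Of 1428 alternative tests of 152 pairs of a named gene and a comparison, 1333 kept the call, 95 lost it and 0 changed sign. The share of dendritic cells was 2.41% in the cKO arch with 1000 genes and 5% mitochondrial UMIs, 1.22 and 0.220% in the cKO and control arch with a C1q sum of 0, and 1.32, 0.170 and 0.355% in the cKO arch, control arch and control descending library after thinning. The rule after thinning gave 14.5 and 6.67% Clec9a or Xcr1 positive cells in the cKO arch and control descending library, and 100.0% Cd209a and 0% Ccr7 positive cells in the latter. Removing the highest doublet scores also gave 0% Ccr7 there.

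Leaving out each library in turn gave 243 to 830 genes higher and 308 to 941 lower against macrophages, 177 to 352 and 361 to 596 against the monocytes as first gated, 4 to 98 and 1 to 56 against the narrower monocytes, 441 to 817 and 334 to 652 against B cells, and 38 to 109 and 45 to 105 between subsets. With no replicate block, the counts were 502 and 573, 195 and 294, 34 and 6, 641 and 482, and 91 and 84 in the same order. With no filter on low counts they were 673 and 1176 (monocytes), 395 and 332 (narrower monocytes), 1452 and 904 (B cells) and 226 and 303 (subsets). Against the narrower monocytes DESeq2 gave 47 lower and removal of doublet scores 33. The cause was not tested.

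With at least 50 UMIs, the 2-fold counts were 492 and 230 (cKO against control arch), 62 and 144 (cKO against control descending), 511 and 278 (cKO arch against cKO descending) and 44 and 122 (control arch against control descending). Among Cd209a positive cells, 408 were lower in the first, 129 higher in the second and 443 lower in the third. Without the highest doublet scores 294 were lower in the second. Of 538 alternative ratios of 100 pairs of a gene and a comparison, 10 changed sign. Among Cd209a positive cells these were Top2a at 0.38 (arch), and Naaa at -0.71, Wdfy4 at -0.13 and Relb at 0.06 (descending); Relb was 0.16 without the highest doublet scores. Without the cell with most UMIs, added after seeing the data, they were Mustn1 at -2.05 and Il4i1 at 1.26 (descending), and Lum at -0.85, Igf1 at -2.44 and Rarres2 at -0.44 (control arch against control descending). The 29 dendritic cells of the control arch, with 357069 UMIs in all, set the depth limit for rare genes.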
